A study of Mus musculus with 6 samples.

Results

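Amino acid transporters are membrane carriers of the solute carrier (Slc) families that take amino acids into the cell, exchange them across the plasma membrane or release them from lysosomes. Their levels were compared between newborn mouse epidermis labelled Paxbp1 knockout and epidermis labelled wild type. The set held 33 genes, chosen by symbol and grouped by Slc family and substrate, out of 54532 genes in the count table, and every one of the 33 matched a row annotated as protein coding. Paxbp1 encodes a nuclear partner of the transcription factors Pax3 and Pax7. There were 3 libraries per genotype, and each had 16315317 to 17816327 counts in total. Per the labels' protocols the epidermis was peeled from the dermis of newborn animals after a night in Dispase II. The labels used here name no strain, sex, Cre line or promoter, nor the part of the gene removed. They do not say how many animals gave each library. A p-value here therefore sets the difference between groups against the spread between libraries only, which may be technical.

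Many plasma membrane carriers work in pairs of roles. Exchangers such as the light chains of the Slc7 family, which need the heavy chain encoded by Slc3a2 to reach the surface, swap one amino acid for another, while sodium-coupled carriers of the Slc38 family load the cell with the small neutral amino acids that the exchangers then trade. Lysosomal carriers return the amino acids and small peptides of degraded protein to the cytosol, and some of them take part in the signal by which amino acids activate the kinase complex mTORC1. In the epidermis amino acids feed keratin synthesis and, after filaggrin breakdown, the moisturising pool of the cornified layer.

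Libraries of one group correlated at 0.966 to 0.976 in the group labelled knockout and 0.983 to 0.986 in the wild type (log2(CPM + 1) across genes), and libraries of different groups at 0.699 to 0.765. Paxbp1 itself had 2370, 1127 and 1125 counts in the libraries labelled knockout, against 2007, 1159 and 1467 in the wild type (edgeR adjusted p = 0.783), so its gene total does not check the labels. Of 12 keratinocyte markers 11 were lower, and their summed level was 5360 to 13555 CPM (counts scaled to a common library size) in the libraries labelled knockout, against 87678 to 143783 CPM in the wild type. The 12 macrophage markers were all higher and summed to 10546 to 19641 CPM in the libraries labelled knockout, against 175 to 192 CPM in the wild type, where none of the 12 was at 0 and Cd163 had 1 count. Of 10 fibroblast markers 9 were higher, and the 10 summed to 4040 to 10227 CPM in the libraries labelled knockout, against 455 to 460 CPM. The other, Fbln1, was lower, with 34.5, 56.5 and 49.8 CPM in the libraries labelled knockout, against 198, 204 and 199 CPM. Of 10 neutrophil markers 6 were tested and called higher. Of these, Ngp, Ltf, Cxcr2, Retnlg and Mmp8 had at most 9 counts over the wild type libraries. They passed the count filter through the libraries labelled knockout only and had to differ. The 10 summed to 940 to 1754 CPM in the libraries labelled knockout, against 1.59 to 3.06 CPM in the wild type. Csf3r made up 618, 599 and 807 CPM of sums of 940, 1231 and 1754 CPM in the libraries labelled knockout. Ly6g, Elane, Mpo and Camp had at most 33 counts in any library and were not tested. Ly6g and Retnlg were at 0 in the wild type. Of 7 endothelial markers 4 were tested and called higher, and Pecam1, which leukocytes also express, made up 166, 252 and 334 CPM of sums of 195, 279 and 365 CPM in the libraries labelled knockout, against sums of 1.22 to 4.53 CPM in the wild type. Emcn had 3, 0 and 2 counts in the libraries labelled knockout and none in the wild type, and Tek and Cldn5 overlapped between the groups. Of 5 adipocyte markers Fabp4, which macrophages also express, was the one tested and was higher, with 457, 430 and 172 CPM in the libraries labelled knockout, against 6.38, 17.5 and 29.8 CPM in the wild type. Adipoq and Plin1 were at 0 in the wild type and in knockout replicates 2 and 3, and Lep was at 0 in all 6 libraries. Of 6 melanocyte markers 3 were lower (Pmel, Dct and Tyr) and Mlana was higher, and the sum was 158 to 294 CPM in the libraries labelled knockout, against 393 to 565 CPM in the wild type. Of 6 T cell markers 3 were lower and Cd2 was higher, and the sum was 8.98 to 14.8 CPM in the libraries labelled knockout, against 12.6 to 29.2 CPM. Among the other markers called higher, Cd163, Pdgfrb, Dpt and Cdh5 had at most 15 counts over the wild type libraries. They too passed the filter through the libraries labelled knockout only and had to differ. Lum, Pdgfra, Kdr, Vwf, Cd2 and Msr1, with 16 to 54 counts over the wild type libraries, also did not pass it on those libraries alone. Cd3e, called lower, had 13, 8 and 1 counts in the libraries labelled knockout and did not pass it on those alone. The calls of these genes were therefore not free of the filter. In such bulk tissue fewer cells of a type and less RNA per cell cannot be told apart.

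Of the 33 transporter genes 30 had enough counts to be tested. The edgeR quasi-likelihood test called 18 of them higher and 7 lower in the tissue labelled knockout, at a threshold of 0.05 on the adjusted p. Over the 16471 genes tested 28.7% were called higher and 25.1% lower, or 53.8% in either direction. The median log2 fold change was 1.07 over the transporter genes tested and -0.03 over all genes tested. Slc3a1 and Slc38a3 passed the filter through the libraries of one group only and had to differ, and without them 17 were higher and 6 lower of 28. The groups did not overlap for 25 of the 30, with the libraries labelled knockout above for 18 and below for 7. Over all genes tested the groups did not overlap for 62.3%, with the libraries labelled knockout above for 31.9% and below for 30.4%. The fold changes ran from -4.68 for Slc1a3 to 5.19 for Slc15a3 on the log2 scale, and members of one family went both ways.

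**Figure D1:**
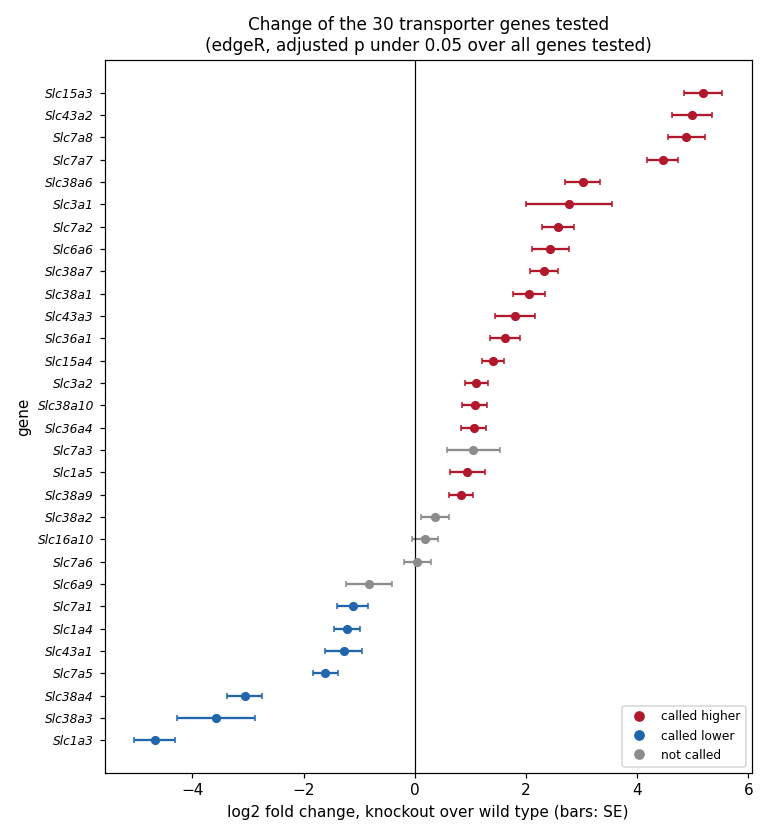
Log2 fold change of knockout over wild type for each of the 30 transporter genes tested (horizontal axis, bars are standard errors), coloured by the edgeR call. The 18 genes called higher reach 5.19 for Slc15a3, and the 7 called lower reach -4.68 for Slc1a3.

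Short stretches of promoter carried known response motifs in 3 of the genes, and they are shown because these genes stand in groups described below. Promoter windows of RefSeq (GRCm38.p6, the build called mm10; 250 bases before to 50 after the start site) matched 24 of the 33 symbols, with 35 windows. The amino acid response element core TGATGNAA, which ATF4 dimers bind, was searched on both strands. It occurred in Slc1a4 and Slc7a7, 2 of the 24 genes with a window, beside 4.51% of all 27025 genes. By window it was in 3 of the 35, beside 3.97% of all 32851 windows. The core TCACGTGA of the lysosomal gene element bound by TFEB, its own reverse complement and chosen after the values were seen, occurred in Slc36a1 and in 0.974% of all windows. By gene this core was in 1 of the 24, beside 1.12% of all genes. The stretches read 5′ to 3′ on the strand of the gene, and capitals mark the motif.
Slc1a4 (chr11:20332700-20332727, minus strand, motif read from the opposite strand): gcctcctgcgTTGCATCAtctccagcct
Slc7a7 (chr14:54418068-54418095, minus strand): cgcttgggctTGATGAAAggttcactgg
Slc7a7 (chr14:54417928-54417955, minus strand): acctagaagcTGATGCAAcagcttcccc
Slc36a1 (chr11:55204326-55204353, plus strand): ggagccagcaTCACGTGAcagggcccgg
The motif began 4 bases before the start site in Slc1a4 and in Slc36a1. In Slc7a7 the 2 motifs began 141 bases and 1 base before the same annotated start site. The second of them also began 243 bases before another annotated start site of Slc7a7. Slc1a4 was lower and Slc7a7 and Slc36a1 were higher in the libraries labelled knockout, so the first motif stood in genes of both directions.

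The heavy chains were both higher. Slc3a2 (ENSMUSG00000010095, mm10 chromosome 19, 8706882 to 8723369), which encodes CD98, had 194, 249 and 224 CPM in the libraries labelled knockout, against 97.6, 112 and 101 CPM in the wild type. The groups did not overlap, and the level was 2.15-fold higher (log2 fold change 1.10 ± 0.21 SE, edgeR adjusted p = 0.00102). FPKM (counts scaled by gene length and by a constant total for each library) is the scale used here between genes. By FPKM Slc3a2 was the first of the 33 genes in the libraries labelled knockout, with a mean of 62.6 FPKM. In the wild type it was the third, with 28.6 FPKM. Slc3a1, the heavy chain that pairs with the cystine carrier Slc7a9 in kidney, was near the limit of detection, with 70, 15 and 14 counts in the libraries labelled knockout and 9, 3 and 3 in the wild type. It was called higher (log2 fold change 2.77 ± 0.77, edgeR adjusted p = 0.0106), but knockout replicate 1 held most of its counts. Without that library the log2 fold change was 1.71 and the call was lost (edgeR adjusted p = 0.0624), as it was with limma-trend on log2(FPKM + 1) without a filter (limma adjusted p = 0.139). Without wild type replicate 1 the log2 fold change was 3.48.

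The light chains changed in different directions. Slc7a5 (LAT1, chromosome 8, 121881150 to 121907694), an exchanger of leucine and other large neutral amino acids, had 38.2, 27.6 and 30.2 CPM in the libraries labelled knockout, against 90.5, 85.6 and 117 CPM in the wild type (log2 fold change -1.61 ± 0.22, edgeR adjusted p = 0.000124). Slc7a8 (LAT2, chromosome 14, 54722209 to 54781946), which carries small and large neutral amino acids, had 166, 131 and 255 CPM in the libraries labelled knockout, against 6.002, 4.89 and 7.75 CPM in the wild type. It was 29.6-fold higher (log2 fold change 4.89 ± 0.33, edgeR adjusted p = 6.99e-07). Every library labelled knockout was far above every wild type library for Slc7a8, and below every one for Slc7a5.

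Slc7a7, which encodes the exporter of arginine and lysine that is mutated in human lysinuric protein intolerance, had 37.7, 41.6 and 59.9 CPM in the libraries labelled knockout, against 2.02, 2.38 and 1.91 CPM in the wild type. It was 22.0-fold higher (log2 fold change 4.46 ± 0.28, edgeR adjusted p = 4.59e-07). Its relative Slc7a6 had 20.6, 15.4 and 15.5 CPM in the libraries labelled knockout and 20.8, 14.5 and 14.6 CPM in the wild type, and was not called (log2 fold change 0.04 ± 0.24, edgeR adjusted p = 0.893). The levels of Slc7a6 overlapped, with replicate 1 the highest of both groups. Slc7a7 and Slc7a8 lie 304 kb apart on chromosome 14 with 16 other protein-coding genes between them.

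By summed FPKM the make-up of the light chains differed between the groups. Slc7a5 made up 17.3%, 15.01% and 10.1% of the 4 light chains in the libraries labelled knockout, against 79.3%, 82.6% and 85.5% in the wild type. Slc7a8 made up 55.9%, 52.8% and 63.3% in the libraries labelled knockout, against 3.90%, 3.49% and 4.21% in the wild type, and Slc7a7 19.2%, 25.4% and 22.4%, against 1.98%, 2.57% and 1.57%. The ratio of Slc3a2 to the summed light chains was 0.928, 1.42 and 0.786 in the libraries labelled knockout and 0.899, 1.13 and 0.780 in the wild type, and overlapped. Beside these shares, macrophage markers summed to at least 10546 CPM in each library labelled knockout and to at most 192 CPM in each wild type library, while keratinocyte markers were at most 13555 and at least 87678 CPM. The part of either in the change of make-up was not tested.

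**Figure D2:**
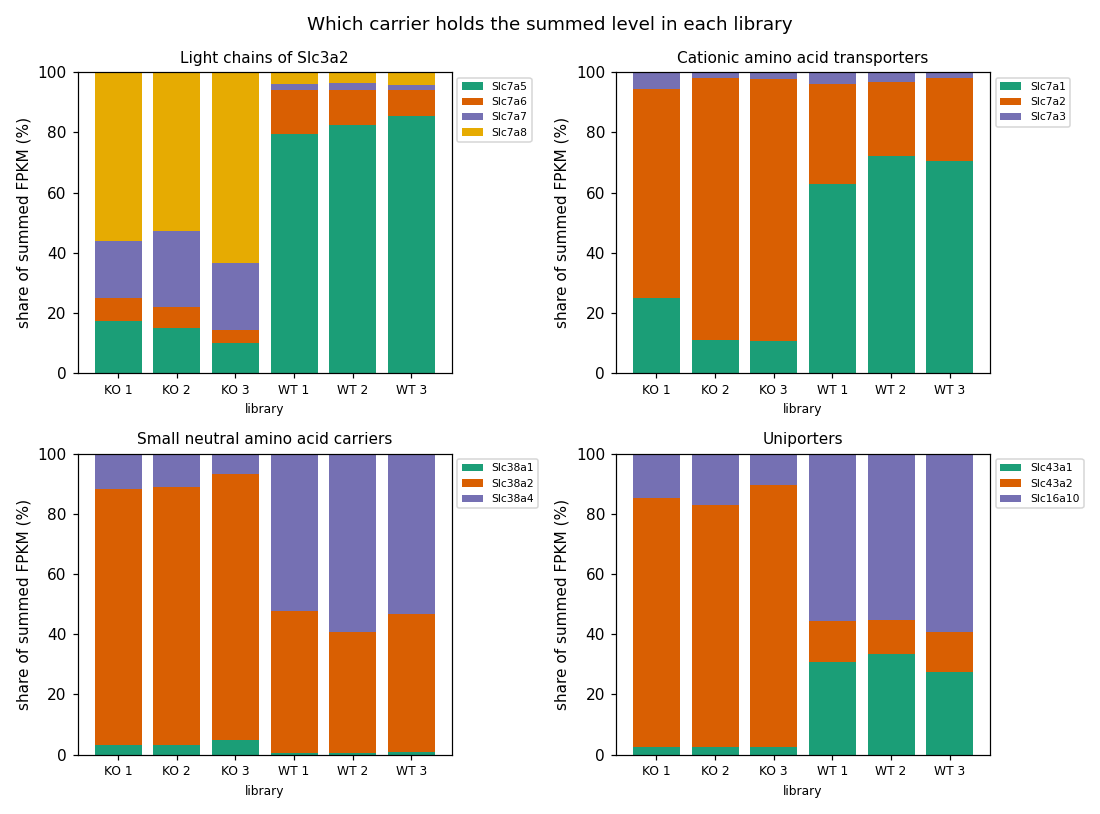
Share of the summed FPKM (vertical axis, percent) that each carrier holds within 4 sets in each of the 6 libraries (KO, labelled knockout; WT, labelled wild type). In the light chain set Slc7a8 holds 52.8% to 63.3% in the libraries labelled knockout, and Slc7a5 holds 79.3% to 85.5% in the wild type.

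Of the cationic carriers, which import arginine, lysine and ornithine, one was higher and one lower. Slc7a2 (chromosome 8, 40862396 to 40922308), the carrier known to supply arginine to activated macrophages, had 156, 231 and 243 CPM in the libraries labelled knockout, against 45.0, 24.0 and 35.9 CPM in the wild type (log2 fold change 2.58 ± 0.29, edgeR adjusted p = 2.56e-05). Slc7a1, the carrier of most dividing cells, had 70.5, 36.6 and 37.9 CPM in the libraries labelled knockout, against 108, 89.5 and 117 CPM in the wild type (log2 fold change -1.12 ± 0.28, edgeR adjusted p = 0.00568). Neither pair of groups overlapped, and knockout replicate 1 was the nearest to the wild type for both genes. The ratio of Slc7a2 to Slc7a1 in FPKM was 2.79, 7.95 and 8.08 in the libraries labelled knockout, against 0.526, 0.339 and 0.387 in the wild type.

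Slc7a3, a cationic carrier best known from brain, had 90, 35 and 40 counts in the libraries labelled knockout and 42, 22 and 21 in the wild type, and was not called (log2 fold change 1.05 ± 0.48, edgeR adjusted p = 0.0847). With the replicate number as a block it was called higher (edgeR adjusted p = 0.0450). Arginine-using enzymes were measured in the same libraries. Nos2, which makes nitric oxide from arginine, had 22.3, 48.8 and 58.2 CPM in the libraries labelled knockout and 2 counts over the wild type libraries (ratio 1133, exact 95% counting interval 313 to 9363). Arg1, which cleaves arginine to ornithine and was chosen after its values were seen, had 2838, 4921 and 5158 CPM in the libraries labelled knockout, against 4.97, 13.6 and 21.1 CPM in the wild type (log2 fold change 8.35 ± 0.65, edgeR adjusted p = 1.98e-06). Macrophages express both enzymes, and the 12 macrophage markers were higher in these libraries; their part in these values was not tested.

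The sodium-coupled carriers of the plasma membrane showed a similar split. Slc38a4 (chromosome 15, 96994820 to 97055956), a carrier of small neutral amino acids that is imprinted in the mouse, had 42.5, 26.5 and 18.3 CPM in the libraries labelled knockout, against 244, 265 and 219 CPM in the wild type. It was 8.33-fold lower in the libraries labelled knockout (log2 fold change -3.06 ± 0.31, edgeR adjusted p = 1.34e-05). In FPKM it ranked first of the 33 genes in the wild type, with a mean of 55.5 FPKM, and sixteenth in the libraries labelled knockout, with 6.78 FPKM. Slc38a1, which carries glutamine and other neutral amino acids, had 48.6, 32.7 and 52.0 CPM in the libraries labelled knockout, against 9.99, 7.58 and 14.3 CPM in the wild type (log2 fold change 2.06 ± 0.29, edgeR adjusted p = 0.000133).

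Slc38a2, the carrier of this class that cells raise when amino acids are short, had 640, 428 and 501 CPM in the libraries labelled knockout and 457, 374 and 390 CPM in the wild type. The groups overlapped and the gene was not called (log2 fold change 0.36 ± 0.26, edgeR adjusted p = 0.261). It ranked second of the 33 genes in FPKM in both groups. Of the summed FPKM of Slc38a1, Slc38a2 and Slc38a4, Slc38a2 held 85.002%, 85.6% and 88.6% in the libraries labelled knockout, against 47.2%, 40.4% and 45.8% in the wild type. These 3 genes lie beside each other on chromosome 15, with 44.5 kb between Slc38a1 and Slc38a2 and 295 kb between Slc38a2 and Slc38a4, and their calls were higher, none and lower.

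Slc38a3 and Slc38a5, which exchange glutamine, histidine and asparagine against protons, were rare. Slc38a3 had 12, 5 and 2 counts in the libraries labelled knockout, against 122, 93 and 29 counts in the wild type (log2 fold change -3.57 ± 0.70, edgeR adjusted p = 0.0013). Without knockout replicate 1 its log2 fold change was -4.32. Slc38a5 had 5, 1 and 0 counts in the libraries labelled knockout and 3, 0 and 0 in the wild type and was not tested.

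The glutamate carriers of the Slc1 family were low except for Slc1a3 in the wild type. Slc1a3 (GLAST, chromosome 15, 8634124 to 8710764), a high-affinity carrier of glutamate and aspartate best known from glia, had 3.11, 1.83 and 0.991 CPM in the libraries labelled knockout, against 56.5, 52.3 and 44.5 CPM in the wild type. It was 25.6-fold lower in the libraries labelled knockout (log2 fold change -4.68 ± 0.37, edgeR adjusted p = 2.11e-06). Slc1a1 had 82, 25 and 7 counts in the libraries labelled knockout and 4, 4 and 2 in the wild type, and Slc1a2 had 22, 2 and 12 counts in the libraries labelled knockout and 5, 5 and 0 in the wild type. Both were too low to be tested. Their summed counts gave ratios of 12.4 (exact 95% counting interval 6.52 to 26.6) and 3.92 (1.91 to 8.87), which cover counting error only, and the libraries labelled knockout differed by several times among themselves.

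The neutral exchangers of the same family went opposite ways. Slc1a4 (ASCT1), which exchanges serine, alanine, cysteine and threonine, had 21.4, 12.9 and 14.9 CPM in the libraries labelled knockout, against 40.7, 37.4 and 36.5 CPM in the wild type (log2 fold change -1.22 ± 0.24, edgeR adjusted p = 0.00126). Slc1a5 (ASCT2), which takes up glutamine, had 54.6, 32.1 and 29.7 CPM in the libraries labelled knockout, against 27.9, 15.4 and 17.03 CPM in the wild type (log2 fold change 0.95 ± 0.31, edgeR adjusted p = 0.0229). The lowest library labelled knockout lay just above the highest wild type library for Slc1a5. That call was lost without knockout replicate 1 (edgeR adjusted p = 0.0678), wild type replicate 2 (0.0879) or wild type replicate 3 (0.0890), with upper-quartile (0.0620) or library-size (0.0969) scaling, and with limma-trend on log2(FPKM + 1) without a filter (limma adjusted p = 0.0738).

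**Figure D3:**
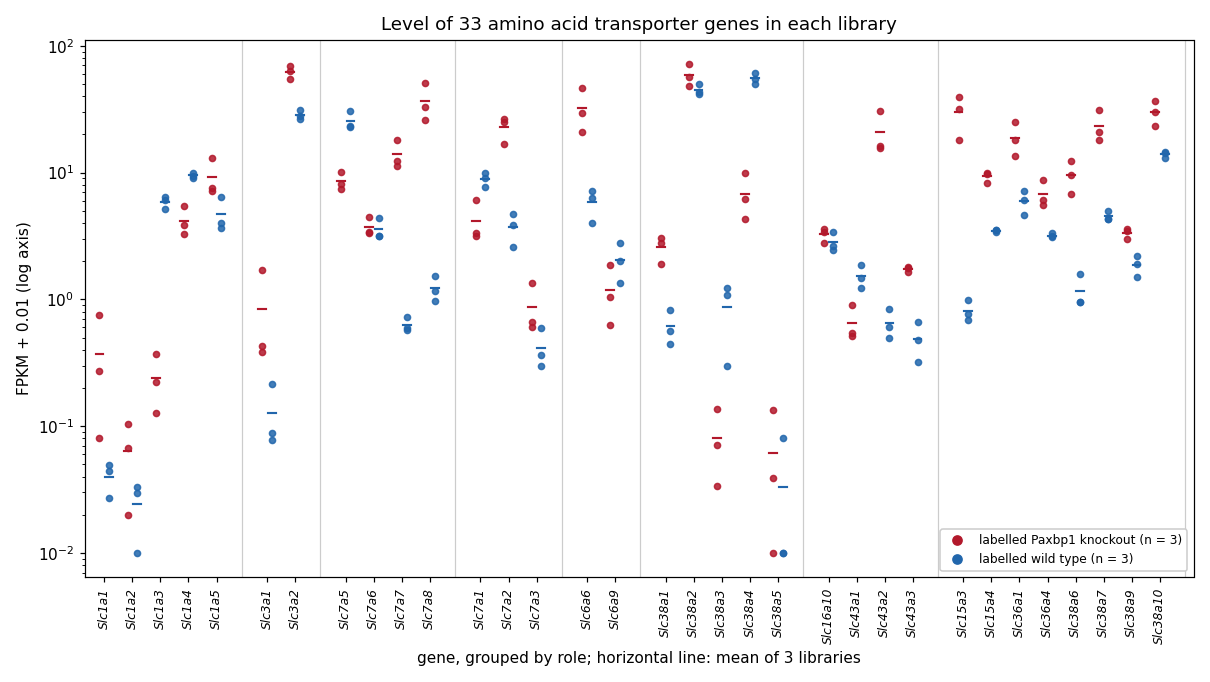
FPKM + 0.01 on a log axis for the 33 transporter genes, grouped by role; each point is a library (n = 3 per group) and each line a group mean. Slc38a4 averages 6.78 FPKM in the libraries labelled knockout and 55.5 FPKM in the wild type, and Slc7a8 averages 36.7 and 1.21 FPKM in the same order.

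The uniporters, which let amino acids leave the cell down their gradient, included the second largest rise of the set. Slc43a2 (LAT4, chromosome 11, 75531694 to 75577575), a carrier of branched-chain amino acids, phenylalanine and methionine, had 157, 165 and 304 CPM in the libraries labelled knockout, against 8.73, 4.89 and 6.10 CPM in the wild type. It was 31.7-fold higher (log2 fold change 4.99 ± 0.36, edgeR adjusted p = 1.12e-06). Slc43a1 (LAT3), with similar substrates, had 2.89, 3.07 and 5.08 CPM in the libraries labelled knockout, against 11.1, 8.50 and 7.11 CPM in the wild type (log2 fold change -1.28 ± 0.34, edgeR adjusted p = 0.00783). The ratio of Slc43a2 to Slc43a1 in FPKM was 31.0, 30.7 and 34.1 in the libraries labelled knockout, against 0.446, 0.328 and 0.489 in the wild type. Of the summed FPKM of Slc43a1, Slc43a2 and Slc16a10, Slc43a2 held 82.6%, 80.5% and 87.2% in the libraries labelled knockout, against 13.7%, 11.01% and 13.4% in the wild type. The Slc43a1 call was lost without both libraries numbered 1 (edgeR adjusted p = 0.0622) and with limma-trend on log2(FPKM + 1) without a filter (limma adjusted p = 0.0581).

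Slc43a3, which carries purine nucleobases and not amino acids, had 7.30, 8.04 and 7.74 CPM in the libraries labelled knockout, against 3.06, 1.41 and 2.12 CPM in the wild type (log2 fold change 1.80 ± 0.35, edgeR adjusted p = 0.00133). It lies 73.0 kb from Slc43a1 on chromosome 2, and the pair was called in opposite directions. Slc16a10 (TAT1), the uniporter of aromatic amino acids, had 20.5, 25.4 and 26.3 CPM in the libraries labelled knockout and 25.9, 18.0 and 19.7 CPM in the wild type, and was not called (log2 fold change 0.18 ± 0.23, edgeR adjusted p = 0.525). An antisense gene that overlaps Slc43a2 by 1378 bases, Gm45606, was also higher, with 209 counts over the libraries labelled knockout and 5 over the wild type, and without a stated strand setting reads in the overlap cannot be told apart.

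The osmolyte taurine and the amino acid glycine have carriers of the Slc6 family. Slc6a6, the taurine carrier, had 253, 177 and 391 CPM in the libraries labelled knockout, against 63.3, 34.3 and 53.9 CPM in the wild type (log2 fold change 2.44 ± 0.34, edgeR adjusted p = 0.000122). Slc6a9 (GlyT1), the glycine carrier, had 9.63, 3.20 and 5.33 CPM in the libraries labelled knockout and 14.8, 6.97 and 10.5 CPM in the wild type, and was not called (log2 fold change -0.82 ± 0.41, edgeR adjusted p = 0.117). With the replicate number as a block Slc6a9 was called lower (edgeR adjusted p = 0.0117), as it was without knockout replicate 1 (log2 fold change -1.32, edgeR adjusted p = 0.0127) and with no filter on low counts (edgeR adjusted p = 0.0358).

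All 8 genes of the lysosomal and other intracellular carriers were higher in the libraries labelled knockout, and for each of the 8 the groups did not overlap. Over all genes tested 28.7% were called higher, and for 31.9% the libraries labelled knockout lay above the wild type without overlap. Their log2 fold changes ran from 0.82 to 5.19, with a median of 1.52. Slc15a3 (PHT2, chromosome 19, 10839727 to 10859362), which moves histidine and small peptides out of endolysosomes and is known from macrophages and dendritic cells, had 100, 177 and 215 CPM in the libraries labelled knockout, against 4.31, 5.44 and 3.77 CPM in the wild type. It was 36.5-fold higher (log2 fold change 5.19 ± 0.34, edgeR adjusted p = 5.97e-07). It overlaps Tmem132a on the other strand by 1541 bases, and Tmem132a was called lower, with 1544 counts over the libraries labelled knockout and 6793 over the wild type. Its relative Slc15a4 (PHT1), needed for endosomal Toll-like receptor signalling, had 44.7, 52.7 and 52.9 CPM in the libraries labelled knockout, against 19.5, 18.95 and 18.3 CPM in the wild type (log2 fold change 1.403 ± 0.20, edgeR adjusted p = 0.000127).

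Slc38a7, a lysosomal exporter of glutamine and asparagine, had 87.1, 75.5 and 128 CPM in the libraries labelled knockout, against 21.5, 18.0 and 18.3 CPM in the wild type (log2 fold change 2.33 ± 0.25, edgeR adjusted p = 1.8e-05). Slc36a1 (PAT1), a proton-coupled carrier of small amino acids in lysosomes, had 103, 76.9 and 139 CPM in the libraries labelled knockout, against 42.1, 34.7 and 26.4 CPM in the wild type (log2 fold change 1.63 ± 0.27, edgeR adjusted p = 0.000442). Its promoter stretch with the TFEB motif is printed above. Slc36a4 (PAT4) had 40.2, 36.5 and 56.7 CPM in the libraries labelled knockout, against 21.4, 20.4 and 22.2 CPM in the wild type (log2 fold change 1.06 ± 0.22, edgeR adjusted p = 0.00216).

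Slc38a9, the lysosomal arginine sensor of the mTORC1 pathway, had the smallest rise of the 8, with 58.6, 50.1 and 59.3 CPM in the libraries labelled knockout, against 37.8, 31.7 and 25.3 CPM in the wild type (log2 fold change 0.82 ± 0.22, edgeR adjusted p = 0.00766). Slc38a10, an intracellular member of its family, had 151, 194 and 235 CPM in the libraries labelled knockout, against 97.7, 84.5 and 93.6 CPM in the wild type (log2 fold change 1.07 ± 0.23, edgeR adjusted p = 0.00207). Gm11769, which overlaps Slc38a10 on the other strand by 785 bases, was also called higher, with 56 counts over the libraries labelled knockout and 13 over the wild type. Slc38a6, whose transport function is less well described, had 96.2, 53.7 and 74.8 CPM in the libraries labelled knockout, against 12.8, 7.397 and 7.48 CPM in the wild type (log2 fold change 3.02 ± 0.31, edgeR adjusted p = 1.34e-05). The 8 calls were kept under every alternative tried. Macrophages are rich in lysosomes, and beside these 8 genes the 12 macrophage markers were higher, with sums of 10546 to 19641 CPM in the libraries labelled knockout, against 175 to 192 CPM in the wild type. Their part in the rises was not tested.

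In order of mean FPKM the libraries labelled knockout had Slc3a2 (62.6 ± 7.65 SD, n = 3), Slc38a2 (58.9 ± 12.03), Slc7a8 (36.7 ± 13.1), Slc6a6 (32.3 ± 13.1), Slc38a10 (30.01 ± 6.76) and Slc15a3 (29.8 ± 10.8) at the top. The libraries of every pair of neighbours in this order overlapped. Within each single library labelled knockout Slc38a2 was above Slc7a8, and Slc7a8 above Slc6a6. The other neighbours changed order between libraries. In the wild type the order was Slc38a4 (55.5 ± 5.54), Slc38a2 (44.9 ± 4.14), Slc3a2 (28.6 ± 2.42), Slc7a5 (25.7 ± 4.46) and Slc38a10 (13.96 ± 0.846). Of the neighbours in this order the libraries of Slc3a2 and Slc7a5 overlapped, and those of the other pairs did not. The summed FPKM of the 33 genes was 406, 377 and 499 in the libraries labelled knockout, against 254, 237 and 237 in the wild type, and their part of the total counts was 0.209% to 0.289% in the libraries labelled knockout, against 0.136% to 0.180% in the wild type.

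Other genes of amino acid handling were described by 4 further lists. Of 40 other amino acid and peptide transporters 23 were tested, and 8 were higher (34.8%, beside 28.7% over all genes tested) and 3 lower (13.04%, beside 25.1%), with a median log2 fold change of 0.41. Slc7a11, the cystine and glutamate exchanger that pairs with Slc3a2, had 49.1, 58.3 and 58.3 CPM in the libraries labelled knockout, against 6.82, 10.5 and 10.9 CPM in the wild type (log2 fold change 2.55 ± 0.24, edgeR adjusted p = 8.29e-06). Pqlc2, a lysosomal exporter of cationic amino acids, rose by 2.33 ± 0.23 on the log2 scale (edgeR adjusted p = 1.09e-05). Slc6a19, a neutral amino acid carrier of gut and kidney, had 1.25, 0.588 and 0.681 CPM in the libraries labelled knockout, against 13.3, 14.3 and 6.26 CPM in the wild type (log2 fold change -3.73 ± 0.45, edgeR adjusted p = 4.50e-05). With 22, 9 and 11 counts in the libraries labelled knockout, Slc6a19 did not pass the count filter on those libraries alone. Its call was therefore not free of the filter.

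Of 28 genes of amino acid sensing upstream of mTORC1, 27 were tested, and 10 were higher and 7 lower, with a median log2 fold change of -0.11. Fnip2, a partner of folliculin, had 106, 77.0 and 116 CPM in the libraries labelled knockout, against 22.3, 16.32 and 19.8 CPM in the wild type (log2 fold change 2.35 ± 0.24, edgeR adjusted p = 1.22e-05). Castor2, of the cytosolic arginine sensor family, rose by 2.48 ± 0.30 (edgeR adjusted p = 5.01e-05). Rragd, one of the Rag GTPases that bring mTORC1 to the lysosome, had 3.28, 3.07 and 3.96 CPM in the libraries labelled knockout, against 19.6, 25.4 and 28.8 CPM in the wild type (log2 fold change -2.84 ± 0.26, edgeR adjusted p = 6.45e-06). The share called higher was 37.04%, beside 28.7% over all genes tested, and the share called lower was 25.9%, beside 25.1%.

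Of 35 genes of the amino acid response and aminoacyl-tRNA synthetases 6 were higher and 10 lower, with a median log2 fold change of -0.23. The serine synthesis genes Phgdh and Psat1 were lower, with log2 fold changes of -3.39 ± 0.33 (edgeR adjusted p = 9.63e-06) and -2.15 ± 0.22 (edgeR adjusted p = 1.52e-05). Mthfd2, a mitochondrial folate enzyme, was higher (2.22 ± 0.27, edgeR adjusted p = 5.30e-05). The lower calls numbered 6 without wild type replicate 2. Shares of 17.1% higher and 28.6% lower stood beside 28.7% and 25.1% over all genes tested.

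Of 51 enzymes of amino acid metabolism 41 were tested, and 15 were higher and 15 lower (36.6% each, beside 28.7% higher and 25.1% lower over all genes tested), with a median log2 fold change of -0.07. Bcat1, the cytosolic branched-chain aminotransferase, had 11.4, 12.9 and 15.7 CPM in the libraries labelled knockout and no count in the wild type (at least 237-fold higher, taking a floor of 3 counts summed over that group). Cbs, the first enzyme of transsulfuration from homocysteine, had 0.736, 0.784 and 0.496 CPM in the libraries labelled knockout, against 38.4, 36.01 and 40.3 CPM in the wild type (log2 fold change -5.82 ± 0.29, edgeR adjusted p = 1.79e-07). Nos2 and Bcat1, with 2 and 0 counts over the wild type libraries, passed the filter through the libraries labelled knockout only. Cbs passed it through the wild type libraries only, so these genes had to differ. In the 4 lists such genes were not counted apart. Keratinocyte markers were lower and macrophage, neutrophil and most fibroblast markers higher in the same libraries. Their part in the calls of these 4 lists was not tested.

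**Figure D4:**
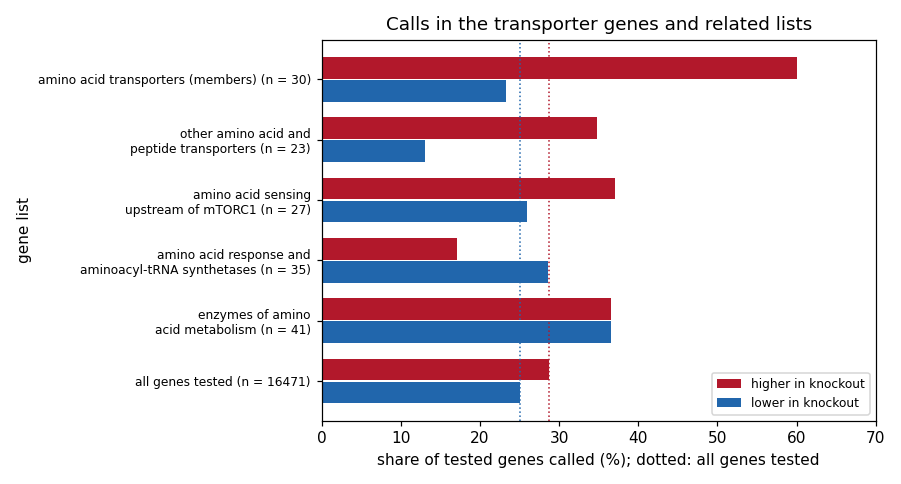
Share of tested genes called higher or lower in the libraries labelled knockout (horizontal axis, percent) for the transporter genes, 4 related lists and all genes tested, whose shares the dotted lines repeat. The transporter genes have 60.0% higher, beside 28.7% of all genes tested.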

How the data were processed

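The authors deposited whole-number read counts per gene and FPKM values for the same 6 libraries. Alignment and counting tools listed in the submitters' processing notes are featureCounts 1.5.0-p3 and HISAT2 2.0.5, with build mm10. No source used here gives the strand setting or the annotation release. In each library the authors' FPKM equalled the count divided by gene length and by 1 constant total (15486588 to 19227474), so both tables hold the same measurement. These constant totals are not the count totals of the libraries, which were 16315317 to 17816327. Gene lengths are those of the count table.

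Counts were tested with edgeR 4.0.16 in R 4.3.3: TMM factors, expression filter (minimum count 10, minimum total 15), robust quasi-likelihood test, genotype as the only term, Benjamini-Hochberg adjustment over 16471 genes. CPM uses the TMM factors, and ± after a log2 fold change is the SE, taken as the size of that change divided by sqrt(F). FPKM served for levels between genes. Intervals and floors cover counting error only. Libraries of a group differed by more than sampling noise (chi-square over degrees of freedom 32.9 to 90.3).

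Whether equal replicate numbers pair libraries was checked once. Across genes, same-numbered libraries deviated from their group means with correlations of 0.29, 0.45 and 0.21. Differently numbered libraries had -0.43 to 0.102, the highest for knockout replicate 3 with wild type replicate 1. Deviations from a mean of 3 libraries are not independent, so these values cannot settle whether the numbers pair the libraries. The labels do not state a pairing. The main test kept genotype as its only term, and the replicate block is given where it changes a call. Counts for knockout against wild type were also simulated over 16056 genes, few of which were altered. There the test recovered 2% of the 1.5-fold changes, 22% of the 2-fold changes, 74% of the 4-fold changes and 96% of those of 8-fold. In the data 53.8% of genes were called, so the adjusted p set a stricter bar on the simulated counts. These shares therefore do not give the power in the data. Alternatives included DESeq2 1.42.0 and limma 3.58.1. Members, lists and tests were chosen with earlier results of these data known. All 33 members are described; from each further list the text names the 2 genes with the smallest adjusted p in the direction with more calls and 1 in the other. Near-identical genes and overlapping genes could share reads. One further marker list is not reported here.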

Additional observations from a re-analysis of the deposited data

How the results depend on the processing

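Over 20 alternatives (other scaling, filters, tools, FPKM with limma-trend, protein-coding genes only, the replicate block, each library left out, both libraries numbered 1 left out) the transporter genes called higher numbered 16 to 19 and those called lower 6 to 8. Of 595 values of single transporter genes 575 kept their direction and call, 10 lost a call, 4 gained one and 6 changed sign. The changes of sign were in genes that were not called: Slc7a6 had a log2 fold change of -0.14 with upper-quartile factors, -0.10 with library size only, -0.10 without knockout replicate 1, -0.05 without wild type replicate 2 and -0.02 without wild type replicate 3 (range over libraries left out -0.10 to 0.24), and Slc16a10 had -0.014 with upper-quartile factors. The cause was not tested. These scalings moved the median of all genes to -0.22 and -0.18. Leaving out each library in turn gave 16 to 19 transporter genes higher and 7 to 8 lower, and 6 to 10 lower genes of the amino acid response and tRNA synthetase list, with the 6 without wild type replicate 2. With the replicate block 19 transporter genes were higher and 8 lower, and of the transporter genes the block changed only the calls of Slc7a3 (1.03) and Slc6a9 (-0.89). In that list the lower genes numbered 15 with upper-quartile factors. Slc1a1, Slc1a2 and Slc38a5 were limited by depth, with at most 114 counts over 3 libraries.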
